A study of Mus musculus with 6 samples.

Results

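The genes described here are the chaperones and proteases that fold and clear proteins inside mitochondria, measured in brain microvessels of mice with and without *Crif1* in endothelial cells. They were chosen by symbol: *Hspd1*, *Hspe1*, *Hspa9* and *Trap1* among the chaperones, *Lonp1*, *Clpp* and *Clpx* among the matrix proteases, and *Yme1l1*, *Afg3l2* and *Htra2* among the proteases of the inner membrane and the intermembrane space. All 10 were listed once in every file, out of 23183 gene symbols, and all 10 were among the 14247 genes tested because their mean over the libraries reached 1 FPKM (fragments counted on a gene, scaled to the length of its exons and to the size of the library). Microvessels were isolated from the brains of C57BL/6 mice by homogenization, dextran centrifugation and filtering. RNA of 3 WT mice (TEK-cre, *Crif1* +/+) and 3 TEKCRIF1 KO mice (TEK-cre, *Crif1* flox/flox) was sequenced, with no treatment in either group and no age given in the sources used here. Both groups carried the Cre transgene, which the *Tek* promoter drives in endothelial cells, and the libraries do not separate endothelial cells from the other cells of the vessel wall. The question asked of these genes was whether their mRNA differed between KO and WT microvessels.

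CRIF1 is a protein of the large subunit of the mitochondrial ribosome and is needed to make and insert the oxidative phosphorylation subunits that mitochondrial DNA encodes. When mitochondrial proteins misfold or fail to find their partners, cells can raise the transcription of nuclear genes for mitochondrial chaperones and proteases, a program known as the mitochondrial unfolded protein response. Its usual readouts are the mRNAs of the chaperonin pair *Hspd1* and *Hspe1*, of *Hspa9* and of the proteases *Lonp1* and *Clpp*, and in mammals the transcription factors *Atf4*, *Atf5* and *Ddit3* have been tied to it.

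The targeted gene, listed as *Gadd45gip1*, was at 18.8, 15.3 and 16.5 FPKM in WT 1 to 3 and at 10.8, 7.54 and 10.4 FPKM in KO 1 to 3, so that every KO library lay below every WT library (log2 fold change −0.77, SE 0.22, adjusted p = 0.841 by limma). The strand setting of the counting was not given in the sources used here. The spacing of low FPKM values put the depth at an estimated 6600000 to 12100000 fragments per library, and KO 2 was the shallowest. In the WT libraries the rank correlation of a gene's departure from its mean with its GC content was above 0 (0.08 to 0.313), and in the KO libraries it was below 0 (−0.259 to −0.02). The same correlation with transcript length was 0.291 in KO 2 against −0.313 in KO 1 and −0.146 in KO 3.

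In WT microvessels 3 of the 4 chaperones, *Hspe1*, *Hspa9* and *Hspd1*, were the most abundant of the 10 mRNAs. *Hspe1*, the small co-chaperonin that caps the chaperonin ring, led with 85.9 ± 13.2 FPKM (mean ± SD, n = 3), and its 3 WT values lay above those of every other member. *Hspa9*, the matrix member of the Hsp70 family (52.6 ± 3.63 FPKM), and *Hspd1*, the chaperonin itself (50.4 ± 1.65 FPKM), followed, with overlapping WT ranges. *Lonp1*, *Trap1* and *Clpp* formed the next step at WT means of 33.7, 30.0 and 30.0 FPKM, and their ranges overlapped one another in that order. *Afg3l2* at 18.0 FPKM stood above *Clpx* at 15.3 FPKM without overlap, but its WT range overlapped those of *Yme1l1* and *Htra2*. *Clpx*, *Yme1l1* and *Htra2* could not be ordered beyond their spread, with WT means of 15.3, 14.9 and 12.6 FPKM. Of the 9 pairs of neighbours in this order, 5 overlapped. Even the least abundant, *Htra2*, stood at percentile 59.0 of the genes tested in WT, and *Hspe1* stood at percentile 94.9. From the estimated depth, each member rested on about 114 (*Htra2* in WT 2) to 2343 (*Hspd1* in KO 3) fragments, which gives a counting error of at most 9.37% of the value. These figures cover counting error only.

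**Figure D1:**
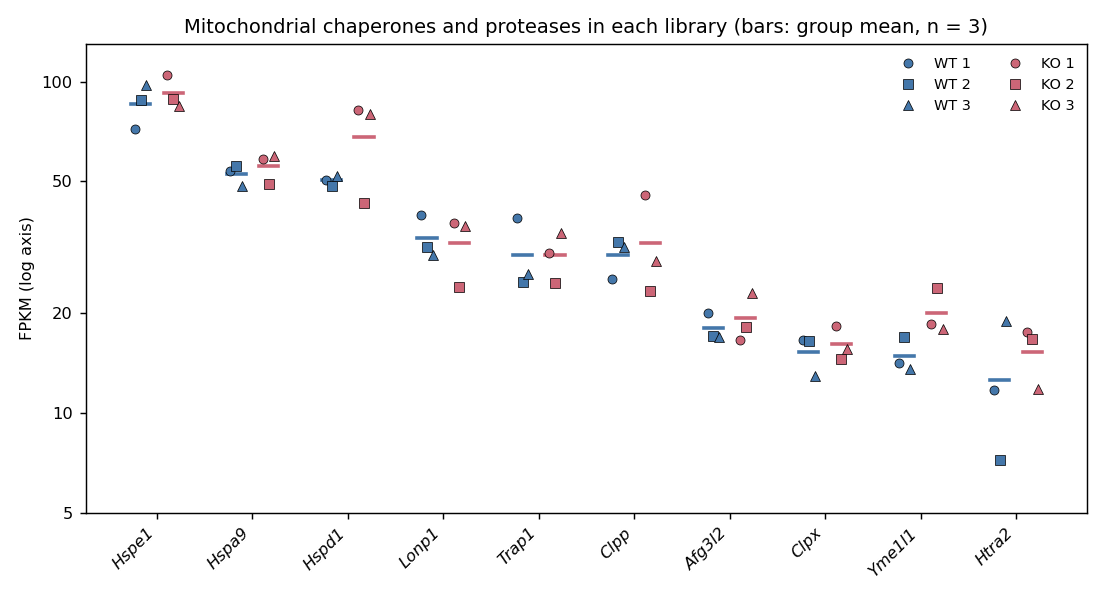
FPKM (log axis) of the 10 genes, ordered by WT mean, in each WT (blue) and KO (red) library, with bars at the group means (n = 3). *Hspe1* is highest at a WT mean of 85.9 FPKM and *Htra2* lowest at 12.6 FPKM, and *Yme1l1* is the one gene whose 3 KO values all lie above its 3 WT values.

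A difference between KO and WT microvessels was not shown for any of these 10 mRNAs. None passed an adjusted p of 0.05 in the limma fit across all genes (Benjamini-Hochberg), where 0% of the 14247 genes tested passed. None had an unadjusted p under 0.05 either, against 5.88% of all genes tested. *Yme1l1* was the 1 member with every KO library above every WT library, a pattern found in 5.37% of all genes, and no member had every KO library below every WT library, against 5.7% of all genes. The fold change was above 0 on the log2(FPKM + 1) scale for 9 of the 10 genes and below 0 for *Lonp1*, with a median of 0.08 against −0.01 over all genes tested. Of the 14247 genes tested, 7007 had a fold change above 0. By role, the median was 0.10 for the 4 chaperones, 0.07 for the 3 matrix proteases and 0.33 for the 3 proteases of the inner membrane and intermembrane space. An exact permutation test of 3 against 3 libraries cannot give a two-sided p under 0.1. The sources name the libraries as separate mice without giving litters or isolation days, and the p-values measure the spread between these libraries. As the microvessels hold several cell types, fewer cells of a type and less RNA per cell cannot be told apart.

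**Figure D2:**
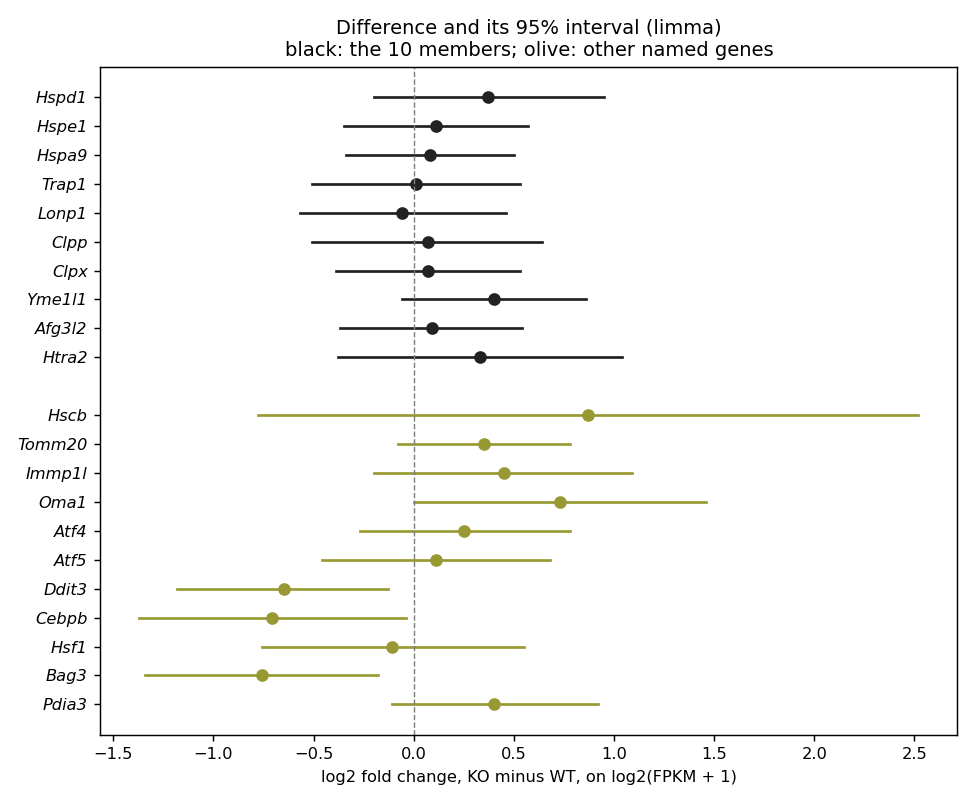
Log2 fold change of KO over WT on the log2(FPKM + 1) scale (points) with 95% intervals from limma (lines, n = 3 per group), for the 10 genes (black) and for genes of the related lists (olive). The interval of each of the 10 genes spans 0, from 0.40 (−0.06 to 0.86) for *Yme1l1* to −0.06 (−0.57 to 0.46) for *Lonp1*.

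*Hspd1* encodes the chaperonin that encloses and folds newly imported matrix proteins, and it showed the widest split among KO mice of the 4 chaperones. In WT 1 to 3 it was at 50.6, 48.6 and 51.9 FPKM, and in KO 1 to 3 at 82.0, 42.9 and 79.9 FPKM. KO 1 and KO 3 lay above all WT libraries, while KO 2 lay below all of them. The coefficient of variation was accordingly 3.27% among WT and 32.2% among KO libraries, for group means of 50.4 ± 1.65 and 68.3 ± 22.0 FPKM (SD, n = 3 each). The log2 fold change was 0.37 (SE 0.26, 95% interval −0.20 to 0.95) and did not pass the test (limma, adjusted p = 0.853, exact permutation p = 0.4). Without KO 2 it was 0.67 (SE 0.15) with an unadjusted p of 0.00178 and an adjusted p of 0.166 by limma, in a comparison where 13.1% of all genes had an unadjusted p under 0.05. The log2 fold change of *Hspd1* was 0.21 without KO 1 and 0.23 without KO 3. Without KO 2, *Hspd1*, *Hspa9* and *Yme1l1* had every KO library above every WT library, against 16.3% of all genes.

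*Hspe1* lies head to head with *Hspd1*, and the partners are transcribed in opposite directions from one short stretch of chromosome 1. In the GRCm38 annotation *Hspd1* spans chr1:55077835-55088243 on the minus strand and *Hspe1* chr1:55088132-55091307 on the plus strand, and their exons overlap by 112 bases. The RefSeq promoter window of *Hspe1* (250 bases before to 50 after its start, GRCm38.p6, chr1:55087898-55088197, plus strand, 5′ to 3′) is shown because 285 of its 300 bases are, read on the other strand, also 1 of the 2 promoter windows of *Hspd1* (chr1:55087883-55088182). The other window of *Hspd1*, at the start annotated above (chr1:55088194-55088493), shares 4 bases with it and held neither TGCAAT nor GAANNTTC. Capitals mark in order a TGCAAT core (position 52, counted from 1 at the 5′ end), GC boxes read on the other strand (79 and 130) and a GAANNTTC heat shock element (167).
Hspe1: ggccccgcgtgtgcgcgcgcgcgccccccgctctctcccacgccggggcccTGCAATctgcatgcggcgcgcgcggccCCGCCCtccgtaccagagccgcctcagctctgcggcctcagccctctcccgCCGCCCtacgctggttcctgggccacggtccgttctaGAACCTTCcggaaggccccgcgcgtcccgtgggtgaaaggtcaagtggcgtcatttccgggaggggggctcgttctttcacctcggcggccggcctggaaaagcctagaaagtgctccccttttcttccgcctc
Of 32851 mouse promoter windows of this length, 8.4% held TGCAAT, the core bound by CHOP-type factors, on either strand. GAANNTTC, the core bound by heat shock factors, was in 7.86% and the GC box GGGCGG in 35.7%. A match describes the letters only and is not a shown binding site.

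*Hspe1* ordered the libraries differently from *Hspd1*. It was at 71.8, 88.1 and 97.9 FPKM in WT 1 to 3 and at 105, 88.4 and 84.5 FPKM in KO 1 to 3. KO 1 was above all WT libraries, and KO 2 and KO 3 lay inside the WT range. Its log2 fold change was 0.11 (SE 0.21, 95% interval −0.35 to 0.57, adjusted p = 0.96 by limma). Within a library the FPKM ratio of *Hspd1* to *Hspe1* was 0.705, 0.552 and 0.53 in WT and 0.78, 0.485 and 0.945 in KO, so that the ratio was highest in KO 3 and lowest in KO 2. The groups overlapped (difference of log2 ratios 0.27, exact permutation p = 0.5, Benjamini-Hochberg p = 0.933 over 4 ratios), and the difference ran from 0.06 without KO 3 to 0.54 without KO 2.

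*Hspa9* encodes the matrix Hsp70 that pulls proteins through the import channel and hands them on for folding. Its values were 53.6, 55.6 and 48.6 FPKM in WT and 58.6, 49.1 and 59.7 FPKM in KO. As with *Hspd1*, KO 1 and KO 3 were above all WT libraries and KO 2 was low, here inside the WT range, but the steps were small. The log2 fold change of 0.08 had the narrowest interval of the 10 genes (SE 0.19, −0.34 to 0.50), which in folds runs from 0.792 to 1.41. It was 0.17 without KO 2 and 0.03 without WT 3 or without KO 3. *Trap1*, the mitochondrial member of the Hsp90 family, was at 38.9, 24.9 and 26.2 FPKM in WT and at 30.3, 24.7 and 35.0 FPKM in KO. The highest value was in WT 1, the groups overlapped over most of their range, and both group means were 30.0 FPKM (log2 fold change 0.01, SE 0.23, 95% interval −0.51 to 0.53, adjusted p = 0.995 by limma).

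The 3 proteases of the matrix had log2 fold changes between −0.06 and 0.07. *Lonp1* encodes the soluble ATP-driven protease that degrades oxidized and unassembled matrix proteins. It was at 39.5, 31.6 and 29.9 FPKM in WT and at 37.4, 24.0 and 36.8 FPKM in KO, where KO 2 lay below all WT libraries and the others inside the WT range. *Lonp1* was the 1 member with a fold change below 0 (−0.06, SE 0.23, adjusted p = 0.984 by limma), and without KO 2 it was 0.15.

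*Clpp* encodes the proteolytic barrel of the ClpXP protease, and *Clpx* the unfoldase that feeds it. *Clpp* was at 25.3, 32.8 and 31.7 FPKM in WT and at 45.4, 23.3 and 28.7 FPKM in KO. KO 1 was above and KO 2 below all WT libraries, and the log2 fold change of 0.07 (SE 0.26, 95% interval −0.51 to 0.64) ran from −0.19 without KO 1 to 0.27 without KO 2. *Clpx* was at 16.6, 16.5 and 12.9 FPKM in WT and at 18.3, 14.5 and 15.6 FPKM in KO, again highest in KO 1, with overlapping groups (0.07, SE 0.21, 95% interval −0.39 to 0.53). The FPKM ratio of *Clpp* to *Clpx* was 1.53, 1.99 and 2.46 in WT and 2.48, 1.61 and 1.84 in KO, and its mean log2 was 0.97 in WT and 0.96 in KO (exact permutation p = 1.0). The ratio of *Lonp1* to *Clpp* was 1.56, 0.963 and 0.943 in WT and 0.824, 1.03 and 1.28 in KO (difference of log2 ratios −0.13, exact permutation p = 0.7).

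**Figure D3:**
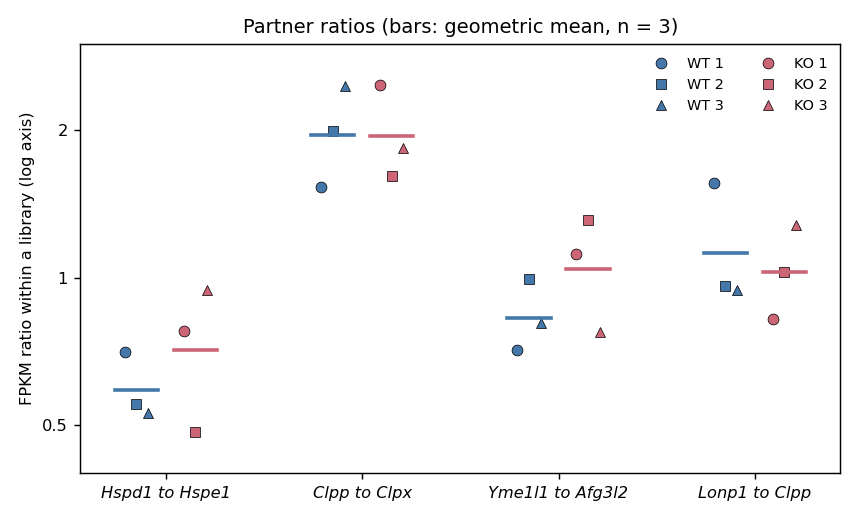
FPKM ratio of partner genes within each WT (blue) and KO (red) library on a log axis, with bars at the geometric means (n = 3). The groups overlap in all 4 ratios, and the difference of log2 ratios for *Yme1l1* to *Afg3l2* was 0.33 (exact permutation p = 0.3), or 0.12 with length and GC trends removed.

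The 1 member without overlap between groups was a protease of the inner membrane. *Yme1l1*, the catalytic subunit of the AAA protease that faces the intermembrane space and cleaves OPA1 and import components, was at 14.2, 17.0 and 13.6 FPKM in WT and at 18.5, 23.8 and 17.9 FPKM in KO. All KO libraries lay above all WT libraries, and KO 2, which lay below the WT mean for 6 members, was here the highest. Group means were 14.9 ± 1.79 and 20.1 ± 3.27 FPKM (SD, n = 3 each). The log2 fold change was 0.40 (SE 0.21, 95% interval −0.06 to 0.86), the exact permutation p was 0.1, the smallest possible, and the adjusted p by limma was 0.841. *Yme1l1* had the longest transcript (4707 bases) and the lowest GC content (38.05%) of the 10 genes. With each library's length and GC trends removed, its log2 fold change was 0.25 (SE 0.19) and the groups overlapped, so that no member was then without overlap. With libraries scaled to their FPKM total it was 0.34 (SE 0.26) and the groups also overlapped. Its RefSeq promoter window (GRCm38.p6, chr2:23156255-23156554, plus strand, 5′ to 3′) is shown as that of the member with separate groups. Capitals mark a CCAAT box (position 117) and a pair of adjacent GC boxes (200 and 206).
Yme1l1: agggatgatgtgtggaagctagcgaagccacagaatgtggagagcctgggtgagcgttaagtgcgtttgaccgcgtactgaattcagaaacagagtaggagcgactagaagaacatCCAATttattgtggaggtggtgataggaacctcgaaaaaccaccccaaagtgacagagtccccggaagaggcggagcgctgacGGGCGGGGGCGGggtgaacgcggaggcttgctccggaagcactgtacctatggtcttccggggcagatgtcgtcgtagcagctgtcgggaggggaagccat
CCAAT, the box bound by NF-Y, was in 37.4% of the 32851 promoter windows, and this window held neither TGCAAT nor GAANNTTC on either strand.

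*Afg3l2*, a subunit of the AAA protease that faces the matrix and processes mitochondrial ribosome components, was at 20.0, 17.1 and 16.9 FPKM in WT and at 16.6, 18.2 and 23.1 FPKM in KO. KO 3 was the highest and KO 1 the lowest of the 6 libraries, so the KO range enclosed the WT range (log2 fold change 0.09, SE 0.21, 95% interval −0.37 to 0.54). The FPKM ratio of *Yme1l1* to *Afg3l2* was 0.711, 0.994 and 0.808 in WT and 1.12, 1.31 and 0.774 in KO, with KO 1 and KO 2 above all WT libraries and KO 3 inside the WT range (difference of log2 ratios 0.33, exact permutation p = 0.3, Benjamini-Hochberg p = 0.933). That difference ran from 0.17 without KO 2 to 0.55 without KO 3. *Htra2*, the serine protease of the intermembrane space, was at 11.7, 7.23 and 19.0 FPKM in WT and at 17.5, 16.7 and 11.8 FPKM in KO. Its WT libraries alone spread with a coefficient of variation of 47.2%, the largest among the 10 genes, and the log2 fold change of 0.33 had the widest interval (SE 0.32, −0.38 to 1.04). It was 0.02 without WT 2 and 0.66 without WT 3. The exons of *Htra2* share 753 of their 2946 bases with *Aup1* and 535 with *Loxl3* on the opposite strand. Without the strand setting, reads from these shared bases cannot be told apart.

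Read by library, KO 1 was the one in which most of the 10 genes were high. In KO 1, 9 of the 10 lay above their WT mean, against 50.8% of all genes tested. Of the 10, 6 lay above every WT library there, against 31.1% of all genes, and *Afg3l2* lay below every WT library, against 28.7%. In KO 3, 7 lay above their WT mean, against 49.9% of all genes, 4 lay above every WT library, against 29.2%, and 0 lay below every WT library, against 28%. In KO 2, 4 lay above their WT mean, against 48.2% of all genes. *Hspd1*, *Trap1*, *Lonp1* and *Clpp* lay below every WT library in KO 2, against 32.6% of all genes, and *Yme1l1* alone lay above every WT library, against 28.7%. The counts for KO 2 and those above every WT library in KO 3 were not far from these shares. The median departure of the 10 genes from the WT mean was 0.27, −0.08 and 0.16 in KO 1 to 3 on the log2(FPKM + 1) scale, and 0.02, 0.00 and −0.10 in WT 1 to 3. Their summed level was 430, 326 and 393 FPKM in KO 1 to 3, and the WT libraries held 342, 339 and 349 FPKM. The FPKM total over all genes was also highest in KO 1 (539407.7) and lowest in KO 2 (381187.3), with 449105.9 in KO 3 and 425204.8 to 445069.4 in WT. As a share of that total the 10 genes made up 0.0797%, 0.0854% and 0.0875% in KO 1 to 3 and 0.0763% to 0.082% in WT, so that on this scale KO 1 lay inside the WT range and KO 2 above it. KO 2 was also the shallowest library and had a length trend opposite to that of the other KO libraries, and the part of these features in its low values was not tested.

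**Figure D4:**
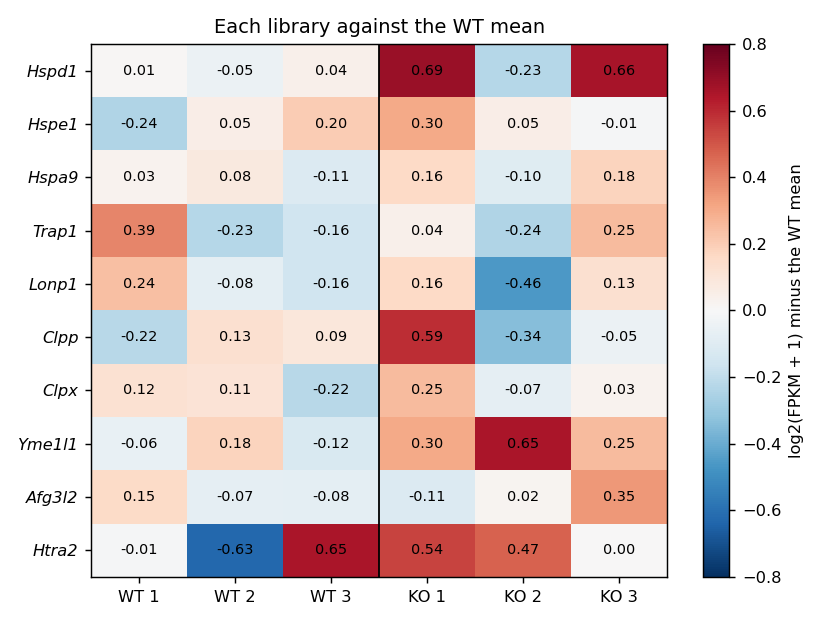
Departure of each library from the WT mean on the log2(FPKM + 1) scale for the 10 genes (rows) in the WT and KO libraries (columns), with values printed and colored from blue (lower) to red (higher). *Hspd1* is at 0.69 and 0.66 in KO 1 and KO 3 and at −0.23 in KO 2, while *Yme1l1* is highest in KO 2 at 0.65.

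Across the 6 libraries the members did not vary as 1 block. Over their 45 pairs the median Pearson correlation of log2(FPKM + 1) was 0.15, and 30 pairs were above 0. The highest were *Trap1* with *Lonp1* (0.84, and 0.77 with length and GC trends removed), *Hspd1* with *Hspa9* (0.81 and 0.68) and *Hspa9* with *Clpx* (0.78 and 0.79). *Hspe1* with *Clpp* followed at 0.74 but was at 0.20 with the trends removed, and the head-to-head pair *Hspd1* with *Hspe1* turned from 0.35 to −0.59. The lowest were *Hspe1* with *Afg3l2* (−0.64 and −0.47) and *Hspe1* with *Trap1* (−0.58 and −0.89). *Hspe1* has the shortest transcript of the 10 genes (774 bases). Both genes of a pair come from the same library and share its depth and composition, so these values describe these 6 libraries only.

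Other genes of mitochondrial protein quality control had fold changes on both sides of 0. Of 41 such genes, 39 were tested, 23 of them with a fold change above 0 and 16 below, and the median was 0.03. None passed the adjusted test. Of the 39, 3 had an unadjusted p under 0.05, a share close to the 5.88% of all genes, with *Oma1* above 0 and *Ddit3* and *Cebpb* below. *Oma1*, the stress-activated protease that cleaves OPA1 beside YME1L1, was at 2.28, 6.12 and 5.35 FPKM in WT and at 9.54, 8.06 and 6.10 FPKM in KO. KO 3 lay inside the WT range and WT 1 well below the other libraries. The log2 fold change was 0.73 (SE 0.33, unadjusted p = 0.0491, adjusted p = 0.841 by limma), and without WT 1 it was 0.39. The unadjusted p of *Oma1* was over 0.05 in 12 of 16 alternative analyses.

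The transcription factors of the list had fold changes on both sides of 0. *Ddit3*, which encodes CHOP, was at 8.72, 10.6 and 10.5 FPKM in WT and at 4.74, 7.62 and 5.77 FPKM in KO. All KO libraries were below all WT libraries, as in 5.7% of all genes (log2 fold change −0.65, SE 0.24, unadjusted p = 0.0203, adjusted p = 0.841 by limma). *Cebpb*, which encodes a factor that pairs with CHOP, was at 12, 9.95 and 8.30 FPKM in WT and at 9.10, 5.20 and 3.86 FPKM in KO, with KO 1 inside the WT range (−0.71, SE 0.30, unadjusted p = 0.0387, adjusted p = 0.841 by limma). The unadjusted p was over 0.05 in 3 of 16 alternative analyses for *Ddit3* and in 6 of 16 for *Cebpb*. *Atf4* (log2 fold change 0.25, SE 0.24), *Atf5* (0.11, SE 0.26) and *Hsf1* (−0.11, SE 0.29) had overlapping groups, and *Atf4* ran from 0.05 without KO 1 to 0.45 without KO 3. The secreted factors *Fgf21* and *Gdf15* were listed at 0 in 5 and 4 of the 6 libraries, reached at most 0.106 and 0.712 FPKM, in KO 3, and were too low to be tested.

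Among the machinery that brings proteins in, 8 of 9 genes of the import channel and motor had a fold change above 0, with a median of 0.14. Over all genes this held for 7007 of the 14247 tested. *Tomm20*, a receptor of the outer membrane, was at 17.9, 22.0 and 23.2 FPKM in WT and at 26.7, 25.6 and 28.6 FPKM in KO. All its KO libraries lay above all WT libraries, as in 5.37% of all genes (0.35, SE 0.19, unadjusted p = 0.0999, adjusted p = 0.841 by limma). Of the 39 genes tested in the quality control list, 2 had this pattern and 1 the reverse, shares near those of all genes. For the 8 processing peptidases the median was 0.17, and the largest value was that of *Immp1l*, an inner membrane peptidase, at 0.45 (SE 0.29). The value of *Immp1l* was 0.14 without KO 1, 0.72 without KO 2 and 0.16 with length and GC trends removed. For the 8 co-chaperones the median was 0, and *Hscb*, a partner of HSPA9 in the transfer of iron-sulfur clusters, had the largest value at 0.87 with an SE of 0.74. The value of *Hscb* ran from 0.09 without WT 2 to 1.60 without KO 2. The 9 other proteases and scaffolds had a median of −0.06.

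Chaperones of other compartments, like the mitochondrial ones, stood higher in KO 1 and KO 3 than in KO 2 before scaling to the FPKM total. The 4 mitochondrial chaperones had a median departure from the WT mean of 0.23, −0.16 and 0.21 in KO 1 to 3. The 10 chaperones of the endoplasmic reticulum stood at 0.45, −0.11 and 0.24, and the 13 of the cytosol at 0.25, −0.24 and 0.10. The FPKM total was also highest in KO 1 (539407.7) and lowest in KO 2 (381187.3). The mitochondrial chaperones summed to 276.2 FPKM in KO 1 and 205.0 FPKM in KO 2, a smaller share of the total in KO 1. The shares of the other compartments were larger in KO 1 than in KO 2, and that of the cytosol lay below every WT library in both. *Hspa5*, the Hsp70 of the endoplasmic reticulum, was at 216, 201 and 204 FPKM in WT and at 277, 151 and 284 FPKM in KO, with KO 1 and KO 3 above all WT libraries and KO 2 below them, as for *Hspd1*. *Pdia3*, a disulfide isomerase, had the largest fold change of the endoplasmic reticulum list (0.40, SE 0.23, adjusted p = 0.841 by limma), which ran from 0.28 without KO 1 to 0.62 without KO 2. Over both groups of chaperones 16 of 23 had a fold change above 0, against 7007 of the 14247 genes tested. The median was 0.15 for the endoplasmic reticulum and 0.07 for the cytosol, against 0.10 for the mitochondrial chaperones. Of the 23, 1 had an unadjusted p under 0.05, against 5.88% of all genes. It was *Bag3*, a cytosolic co-chaperone of autophagy, with every KO library below every WT library, as in 5.7% of all genes (−0.76, SE 0.26, unadjusted p = 0.0157, adjusted p = 0.841 by limma). The difference between compartments was not tested.

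**Figure D5:**
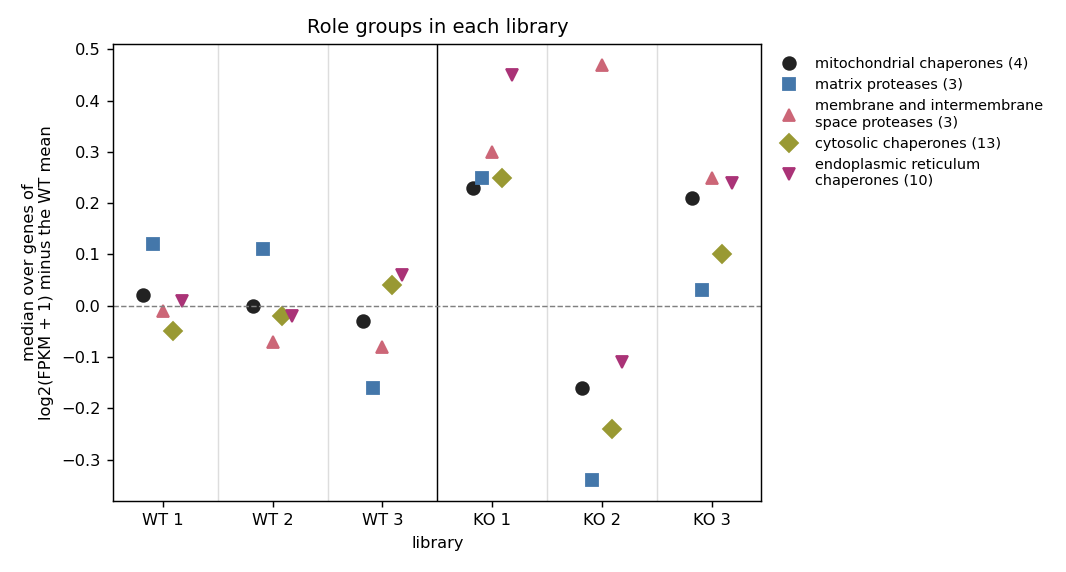
Median over the genes of each role group of the departure from the WT mean (log2(FPKM + 1) scale) in each WT and KO library, with the number of genes in parentheses. The chaperones of all 3 compartments are above 0 in KO 1 and KO 3 and below 0 in KO 2, where the membrane and intermembrane space proteases are at 0.47. Libraries were not scaled to their FPKM totals here.

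The mitochondrial genes were measured in a mixture of the cell types in and around the vessel. Of 37 markers, all tested and none at 0 everywhere, 30 had a fold change below 0, with a median of −0.27, against 7240 of the 14247 genes tested. Of the 37, 9 had an unadjusted p under 0.05 by limma, all lower, against 5.88% of all genes. Every KO library lay below every WT library for 8 of the 37, against 5.7% of all genes. The lowest median of a marker group was −0.66, for the 4 oligodendrocyte markers, of which 2 had an unadjusted p under 0.05 by limma. The 7 endothelial markers summed to 1220, 1179 and 868.5 FPKM in WT and to 1049, 748.2 and 948.9 FPKM in KO. As a share of the FPKM total they made up 0.204% to 0.282% in WT and 0.194%, 0.196% and 0.211% in KO 1 to 3. *Cdh5*, the cadherin of endothelial junctions, was at 86.7, 92.4 and 91.3 FPKM in WT and at 50.8, 42.5 and 38.1 FPKM in KO, present in every library and without overlap between groups (log2 fold change −1.03, SE 0.19, unadjusted p = 0.000303, adjusted p = 0.841 by limma). The other 6 endothelial markers had fold changes between −0.40 and 0.09 with overlapping groups. The 3 markers of arterial smooth muscle all had fold changes above 0, with a median of 0.39, and their median departure from the WT mean was 1.24, −0.21 and 0.31 in KO 1 to 3 and 0.79, −0.47 and −0.34 in WT 1 to 3. They were thus also higher in KO 1 and KO 3 than in KO 2. The same order held for endothelial (−0.21, −0.36 and −0.07 in KO 1 to 3), fibroblast (−0.05, −0.32 and −0.18) and microglia markers (−0.09, −0.44 and −0.29). The remaining marker groups did not follow it. The 4 astrocyte markers summed to 519.6 to 576.7 FPKM in WT and to 373.2 to 409.0 FPKM in KO. Only the 2 most abundant of them had KO below WT without overlap, and the rest had overlapping groups. The 4 neuronal markers ranged from 152.2 to 277.3 FPKM in WT and from 100.6 to 246.1 FPKM in KO, where KO 2 held the highest sum. The part of cell composition in the values of the 10 genes was not tested.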

How the data were processed

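Libraries were prepared with a directional kit and sequenced as read pairs. According to the methods of the study and the submitters' processing notes, the authors trimmed reads, mapped them with TopHat to mm10 and deposited 1 FPKM value per gene and library. Program versions, the counting program and its strand setting were not given in the sources used here. The authors' own test used DESeq2, and no counts were used here. Values were taken as log2(FPKM + 1), and genes averaging 1 FPKM or more were tested with limma 3.58.1 (R 4.3.3, trended variance, no block, Benjamini-Hochberg adjustment over all 14247 genes tested). Fold changes on this scale understate the change of low genes. The fit was tested on simulated data with known changes before use. Exact two-sided permutation tests of single genes and ratios used scipy 1.17.1. Depth estimated from the spacing of low values was 11700000, 9100000 and 11700000 fragments in WT 1 to 3 and 8200000, 6600000 and 12100000 in KO 1 to 3, so that 3 fragments on a 1 kb transcript correspond to 0.248 to 0.455 FPKM. Length and GC content came from the longest protein-coding transcript in GENCODE M21 (13726 of the genes tested). Promoter windows came from RefSeq, which matched 7 of the 10 genes. Groups came from the sample labels. Libraries are numbered as in the sample titles, which differ in part from the numbers in the column headers of the files. The deviations of WT and KO libraries of the same number had correlations of 0.037, 0.027 and 0.002, so no pairing by these numbers was seen. Such values cannot exclude a shared litter or isolation day, which the sources do not give. The genes, the related lists and the tests were chosen with earlier results of these data known. Besides the 10 genes and the targeted gene, the text names, from the quality control list and the chaperones of other compartments, regulators, secreted factors, genes with an unadjusted p under 0.05 and the gene with the largest change in each role. *Hspa5* and *Cdh5* were chosen after their values were seen, and *Aup1* and *Loxl3* for their position. Alternatives were the pseudocount, the filter, the scaling, a replicate block, an untrended variance, length and GC correction, leaving out each library and, chosen after seeing the data, scaling to the FPKM total of each library.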

Additional observations from a re-analysis of the deposited data

How the results depend on the processing

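Over 16 alternatives for each of the 10 genes, 145 of 160 fold changes kept their direction, none passed the adjusted test (smallest adjusted p 0.166 by limma, *Hspd1* without KO 2), and *Hspd1*, *Hspa9*, *Yme1l1* and *Htra2* did not change sign, although *Hspa9* was at 0.00 with length and GC trends removed and *Htra2* at 0.02 without WT 2. With length and GC trends removed, the log2 fold change was −0.01 for *Hspe1*, 0.08 for *Lonp1*, −0.04 for *Clpx* and 0.01 for *Hsf1*, the difference in the log2 ratio of *Clpp* to *Clpx* was 0.15, and 0 members had KO above WT without overlap; the cause was not tested. Scaled to the FPKM total of each library, an alternative chosen after seeing the data, *Trap1* was at −0.04 and 0 members had KO above WT without overlap. Leaving out 1 library at a time, the log2 fold change ranged from −0.01 to 0.21 for *Hspe1*, −0.10 to 0.21 for *Trap1*, −0.16 to 0.15 for *Lonp1*, −0.19 to 0.27 for *Clpp*, −0.04 to 0.14 for *Clpx*, −0.05 to 0.18 for *Afg3l2*, −0.10 to 0.38 for *Atf5* and −0.41 to 0.07 for *Hsf1*. The difference in log2 ratio ranged from −0.19 to 0.16 for *Clpp* to *Clpx* and from −0.29 to 0.11 for *Lonp1* to *Clpp*. Members with KO above WT without overlap numbered 1 to 3 (3 without KO 2, 2 without WT 3), members with an unadjusted p under 0.05 numbered 0 to 1, and genes of the quality control list with an unadjusted p under 0.05 numbered 1 to 4, against 1 with no filter on low values and 3 in the analysis described. Over all genes tested, 0 to 4 passed the adjusted test (4 without KO 2, 4 without KO 3 and 1 without WT 3), and 450 (without WT 2) to 1871 (without KO 2) had an unadjusted p under 0.05, with 510 without KO 1 and 838 with all libraries. The median of the 10 genes ranged from 0.03 to 0.16. With a replicate block 871 genes had an unadjusted p under 0.05, 0 members did, and the fold change of *Hspd1* had an adjusted p of 0.876 by limma. With 3 mice per group, differences inside the 95% intervals of the 10 genes are not excluded by these data.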
